A study of Mus musculus with 6 samples.

Results

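Transcripts of the N-glycan branching enzymes were examined in 6 mouse BCR-ABL positive cell lines. These enzymes are N-acetylglucosaminyltransferases of the Golgi, encoded by the Mgat genes. The members are the rows of the deposited count table for Mgat1, Mgat2, Mgat3, Mgat4a, Mgat4b and Mgat5, which are 6 of 25965 rows. The family was chosen because Mgat4a was lower in every knockout line. The comparison of Mgat4a between the groups is therefore a description with no test. Of the 6 members, 5 passed the filter on low counts that left 10896 genes for testing, and Mgat3 did not pass.

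All lines carry BCR-ABL, the fusion kinase of the Philadelphia chromosome, and were grown in RPMI medium with serum and 2-mercaptoethanol. The 3 libraries labelled Cdk6 wild type (WT1, WT2 and WT3) came from cells electroporated with the control plasmid pSpCas9(BB)-2A-GFP(px458). The 3 libraries labelled Cdk6 knock out (KO1, KO2 and KO3) came from cells that received pSpCas9(BB)-2A-GFP(px458)-hCDK6del, which expresses guide RNAs against CDK6, a cyclin D-dependent kinase. Cells positive for GFP were sorted and plated singly, and clones were grown out, and the knockout was checked by Western blot per the labels. The labels do not say whether the lines of a group came from separate parental cultures. The p-values measure the spread between these libraries only.

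Total counts ran from 17859519 to 24108563 per library. KO2 stood apart, with correlations to the other libraries across tested genes of 0.845 to 0.921, the highest with WT2. In contrast, WT1 and WT3 correlated at 0.990. Values of single libraries are given below in the order 1, 2, 3 of each group, in CPM (read counts scaled to the library total). The targeted transcript did not separate the groups: the WT values of Cdk6 were 39.5, 45.0 and 55.8 CPM and the KO values 42.1, 72.6 and 40.4 CPM. Its log2 difference was 0.14 ± 0.29 (SE, n = 3 per group; edgeR adjusted p = 0.900), and it was -0.22 without KO2, so its direction rests on that library. WT and KO name the libraries as labelled. All 12 of the B lineage markers examined were detected, with a summed level of 4572 to 4707 CPM in WT and 4000 to 5254 CPM in KO. Of the 10 T and NK cell markers with a row, 4 (Cd3e, Cd4, Cd8a and Ncr1) were at 0 in every library, and the summed level was 81.8 to 90.45 CPM in WT and 58.9 to 109.2 CPM in KO. Most of it came from Lck, at 64.4 to 66.5 CPM in WT and 81.8, 0.397 and 48.1 CPM in KO, and from Klrb1c, at 13.9 to 21.7 CPM in WT and 26.1, 77.8 and 10.2 CPM in KO. Of the 8 stromal markers, 6 (Col1a2, Col3a1, Dcn, Pdgfra, Thy1 and Cxcl12) were at 0 throughout, and the sum was at most 0.560 CPM. The part of such RNA in the results was not tested.

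N-glycans are sugar trees attached to asparagine residues of secreted and surface proteins, and they are remodelled in the Golgi after mannose trimming. MGAT1 adds the N-acetylglucosamine that opens the pathway to hybrid and complex glycans. MGAT2 adds another to the other mannose arm. MGAT4A and MGAT4B carry out the same reaction on the arm begun by MGAT1, and MGAT5 adds a branch to the arm begun by MGAT2. MGAT3 adds a bisecting residue that hinders further branching. All use UDP-GlcNAc as donor, and galectins bind the extended branches on surface receptors of lymphocytes.

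The genes lie on 4 chromosomes of GRCm38. Mgat4a (ENSMUSG00000026110) spans 37439340 to 37541016 on the minus strand of chromosome 1, and Mgat5 (ENSMUSG00000036155) spans 127205015 to 127488336 on the plus strand of the same chromosome. Mgat1 (ENSMUSG00000020346; 49244191 to 49263030) and Mgat4b (ENSMUSG00000036620; 50210890 to 50235103) both lie on the plus strand of chromosome 11. Mgat2 (ENSMUSG00000043998) lies on chromosome 12 from 69184157 to 69186770, and Mgat3 (ENSMUSG00000042428) on chromosome 15 from 80173721 to 80215519. Of the annotated genes that overlap a member, only Tmem163, on the strand opposite to Mgat5, had a row in the table, with at most 1 count in any library.

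The 250 bases before the annotated start are shown for Mgat4a, Mgat1 and Mgat5, the members whose WT and KO libraries did not overlap. The sequences are from RefSeq (GRCm38.p6), and where several starts were listed the most upstream was taken. They are written 5′ to 3′ on the strand of the gene. Capitals mark matches, on either strand, to GGGCGG (the GC box), CCAAT and CCGGAA (an ETS core).
Mgat4a, chr1:37541017-37541266, minus strand: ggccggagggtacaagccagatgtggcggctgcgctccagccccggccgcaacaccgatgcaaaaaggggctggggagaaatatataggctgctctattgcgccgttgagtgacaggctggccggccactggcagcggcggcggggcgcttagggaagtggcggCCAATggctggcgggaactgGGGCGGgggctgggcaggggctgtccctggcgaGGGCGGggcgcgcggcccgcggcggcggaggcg
Mgat1, chr11:49243941-49244190, plus strand: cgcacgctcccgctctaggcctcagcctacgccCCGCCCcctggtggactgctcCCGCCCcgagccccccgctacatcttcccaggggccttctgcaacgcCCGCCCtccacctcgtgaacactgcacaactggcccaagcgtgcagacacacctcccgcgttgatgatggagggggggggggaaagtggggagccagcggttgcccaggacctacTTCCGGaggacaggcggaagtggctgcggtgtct
Mgat5, chr1:127204736-127204985, plus strand: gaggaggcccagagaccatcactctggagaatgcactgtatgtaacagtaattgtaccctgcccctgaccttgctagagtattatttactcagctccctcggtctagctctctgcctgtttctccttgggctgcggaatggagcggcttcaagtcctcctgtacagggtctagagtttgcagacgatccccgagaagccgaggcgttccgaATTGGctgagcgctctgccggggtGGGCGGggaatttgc
The Mgat4a window was 72.4% G and C with 26 CpG dinucleotides, that of Mgat1 68.8% with 18, and that of Mgat5 56.0% with 11. The medians over 32851 promoter windows of this length were 52.4% and 6. GGGCGG occurred 2 times in the Mgat4a window, 3 times in that of Mgat1 and 1 time in that of Mgat5, and 32.7% of all windows hold it. CCAAT occurred 1 time each in the Mgat4a and Mgat5 windows and 0 times in that of Mgat1, against 33.8% of all windows. CCGGAA was found 1 time, in the Mgat1 window (12% of all windows). CACGTG (6.02% of all windows), TATAAA (12.4%) and TTCNNNGAA (7.02%) were not found in these 3 windows. None of the marked matches overlapped another. The window of Mgat2, whose groups overlapped, was 66.8% G and C with 30 CpG dinucleotides. It held GGGCGG 2 times, CCAAT 2 times and TTCNNNGAA 1 time, so these features were not particular to the members shown. A match describes the letters and shows no binding.

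Mgat1, the enzyme that opens the pathway, was lower in each KO library than in any WT library. The WT values were 150.4, 143.2 and 143.7 CPM, and the KO values 115.9, 119.4 and 121.8 CPM. The groups did not overlap, and the 95% counting interval of the highest KO library (117.0 to 126.7 CPM, exact Poisson) lay below that of the lowest WT library (137.9 to 148.7 CPM). WT averaged 145.8 ± 4.05 CPM (SD, n = 3) and KO 119.0 ± 2.95 CPM, so that KO stood at 81.7% of WT. On the log2 scale the difference was -0.31 ± 0.06 (SE), with a 95% interval of -0.46 to -0.16. It did not pass edgeR's quasi-likelihood test over all genes (adjusted p = 0.479, unadjusted p = 0.0025), and it passed DESeq2 (-0.31 ± 0.07, adjusted p = 0.00361). Counting intervals cover counting error only, since sequenced fragments are not separate molecules. In bulk RNA, fewer expressing cells and less RNA per cell cannot be told apart, here and for the other members.

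Mgat2, which acts next, overlapped between the groups. The WT values were 109.7, 112.7 and 104.4 CPM, the KO values 101.4, 108.9 and 100.8 CPM, and KO2 exceeded WT3. The log2 difference was -0.09 ± 0.08 (SE), with a 95% interval of -0.29 to 0.11 (edgeR adjusted p = 0.755, DESeq2 adjusted p = 0.852).

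Mgat4a had the widest gap between the groups of the 5 measured members, which is the gap the family was chosen for. The table held 1803, 1126 and 1436 counts for WT, and 393, 296 and 463 counts for KO. Scaled by library totals these were 74.8, 59.1 and 70.9 CPM in WT and 22.01, 14.7 and 22.7 CPM in KO. The highest KO library, KO3, was well below the lowest WT library, WT2, and the lowest of all was KO2. The mean of KO, 19.8 ± 4.44 CPM (SD, n = 3), was 29.0% of the WT mean of 68.3 ± 8.19 CPM, and the log2 fold change was -1.81 ± 0.18 (SE). Without WT2 and KO2, the pair with the lowest value in each group, it was -1.74 ± 0.08.

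Mgat4b, whose enzyme catalyses the same step as MGAT4A, had nearly the same level in the 2 groups. The WT values were 79.7, 81.2 and 85.2 CPM and the KO values 79.6, 76.6 and 82.5 CPM. KO3 exceeded WT1 and WT2, and the log2 difference was -0.07 ± 0.06 (SE), with a 95% interval of -0.21 to 0.08 (edgeR adjusted p = 0.756, DESeq2 adjusted p = 0.850). Per exonic kilobase, with all annotated exons of a gene joined, Mgat4a supplied 16.5%, 13.3% and 15.0% of the summed Mgat4a and Mgat4b level in the WT libraries. In the KO libraries it supplied 5.52%, 3.89% and 5.48%. The summed level of the pair was 35.5 ± 1.23 CPM per kilobase (SD, n = 3) in WT and 30.8 ± 1.41 in KO. These shares rest on the same Mgat4a counts and add no separate evidence, and they depend on the length assigned to Mgat4a, whose 4 coding transcripts range from 1.80 to 7.25 kb. With the shortest coding transcript of each gene the mean share was 52.8% in WT and 24.9% in KO.

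Mgat5, whose enzyme makes the branch preferred for extension with poly-N-acetyllactosamine, was higher in 2 of the KO libraries. The WT values were 17.0, 17.8 and 16.1 CPM, the KO values 29.7, 34.4 and 17.98 CPM. The groups did not overlap, but KO3 exceeded WT2 by less than counting error: the 95% counting intervals were 16.2 to 19.9 CPM for KO3 and 15.9 to 19.8 CPM for WT2. WT averaged 17.0 ± 0.841 CPM (SD, n = 3) and KO 27.4 ± 8.46 CPM. The log2 difference was 0.68 ± 0.27 (SE), with a 95% interval of 0.01 to 1.35, and passed neither edgeR (adjusted p = 0.529, unadjusted p = 0.0477) nor DESeq2 (adjusted p = 0.314). It was 0.45 without KO2 and 0.92 without KO3.

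Mgat3, which adds the bisecting residue, had 0 counts in all 6 libraries. At these depths 3 counts, taken here as the limit of a count of 0, correspond to 0.124 to 0.168 CPM. A 0 in this table can also come from the counting, since the 13 mitochondrial gene rows were at 0 throughout. Related genes outside the 6 members were also at or near 0. Mgat4c, Mgat4e (listed under its older symbol 4931440L10Rik) and Mgat5b had 0 counts in every library. Mgat4d (listed as 4933434I20Rik), a relative described as an inhibitor of MGAT1, lay at 0.198 CPM in WT3 and 0.112 CPM in KO1 and at 0 in the other 4 libraries.

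**Figure D1:**
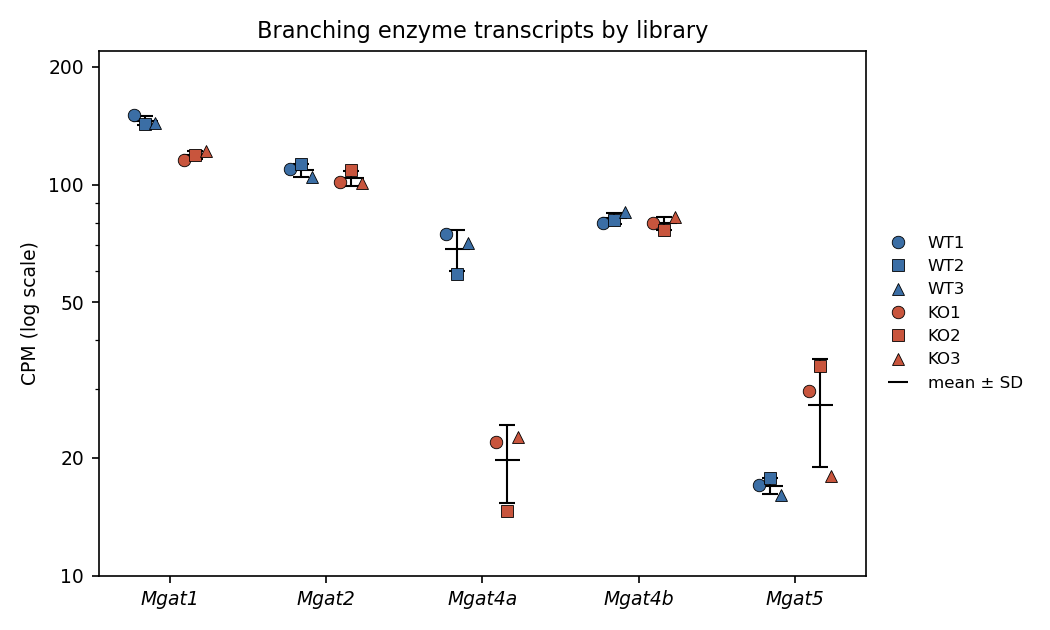
Level of the 5 measured branching enzymes in each library, in CPM on a log axis, with the mean and SD of each group of 3. Mgat4a lies at 59.1 to 74.8 CPM in WT and 14.7 to 22.7 CPM in KO, Mgat1 is lower in every KO library, and the KO libraries of Mgat5 spread from 17.98 to 34.4 CPM. Mgat3 had 0 counts and is not drawn.

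Of the 4 members tested, Mgat4a being left out, 0 passed edgeR, as did 0% of all 10896 genes (9.45% of genes, or 1030, had an unadjusted p under 0.05). The call of limma-voom was also 0 of 4 and 0%, with 9.55% of genes at an unadjusted p under 0.05. The groups did not overlap for 3 of the 5 members, against 19.3% of all tested genes. These were 2 members that were lower in KO, Mgat1 and Mgat4a, against 8.68% of all tested genes, and for 1 member that was higher, Mgat5, against 10.6%. DESeq2, which gave an adjusted p to 11212 rows, called 1.94% of them, 1.24% lower and 0.705% higher in KO, and among these 4 members it called Mgat1 alone. Without WT2 and KO2, a setting chosen after seeing the data, DESeq2 called 2.89% of rows, and again Mgat1 alone of those 4 (-0.35 ± 0.10, adjusted p = 0.022). The family was picked on this contrast for Mgat4a, so nothing is read from these counts.

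Levels of different genes were compared per exonic kilobase, and their order depends on the length used. With all annotated exons joined, in WT Mgat2 stood at 41.7 ± 1.60 CPM per kilobase (SD, n = 3), Mgat1 at 30.8 ± 0.856 and Mgat4b at 30.2 ± 1.04. Mgat1 and Mgat4b did not differ beyond their spread in WT, and their order in WT3 was the reverse of that in WT1 and WT2. Mgat4a followed at 5.30 ± 0.636 and Mgat5 at 1.65 ± 0.0817 CPM per kilobase. In KO, Mgat4b (29.3 ± 1.09) stood above Mgat1 (25.2 ± 0.623) in all 3 libraries, and Mgat4a (1.54 ± 0.345) and Mgat5 (2.66 ± 0.822) had changed places in KO1 and KO2, while KO3 had them at 1.76 and 1.75. With the longest coding transcript of each gene, Mgat1 was highest among the members in WT at 46.3 CPM per kilobase, above Mgat2 at 41.7 and Mgat4b at 33.8. In KO, Mgat1 at 37.8 was then below Mgat2 at 39.7 and above Mgat4b at 32.8. With the shortest coding transcripts, Mgat1 was highest in both groups, at 58.8 in WT and 47.99 in KO. Mgat4a was then at 37.9 in WT, above Mgat4b at 33.8, and in KO it was at 10.98, above Mgat5 at 8.51.

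The genes around Mgat4a were measured to see whether they moved with it. The nearest coding gene upstream, 2010300C02Rik (now Cracdl; chromosome 1, 37611677 to 37720085, minus strand), was at or near 0 counts in every KO library. Its WT values were 9.13, 4.93 and 5.73 CPM and its KO values 0.280, 0.0496 and 0 CPM. The 430 counts of the WT libraries together stood against 6 counts in the KO libraries, and scaled by library totals KO was at 1.51% of WT. This ratio of pooled counts leaves out the spread between the lines. The fitted log2 fold change of 2010300C02Rik, -5.90 ± 1.03, depends on how such low counts are treated. It passed the filter on low counts through the WT libraries alone, and no test of it is given. The gene is transcribed on the same strand as Mgat4a, its end lies 70.7 kb before the Mgat4a start, and no other annotated coding gene lies between them.

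The other 13 tested genes that start within 1 Mb of the Mgat4a start were closer to their WT levels. Their median log2 fold change was -0.06, from -0.79 for Inpp4a, a phosphoinositide phosphatase at or under 0.686 CPM in every library, to 0.36 for Mitd1. On the other side of Mgat4a, Unc50 lay at 23.2, 23.0 and 25.1 CPM in WT and at 16.1 to 22.7 CPM in KO (-0.28 ± 0.14 SE). Mrpl30, a mitochondrial ribosomal protein gene (-0.29 ± 0.15), and Cox5b, a subunit of cytochrome c oxidase (-0.48 ± 0.13), were also lower in every KO library, and Mitd1 was higher in every one. Txndc9 and Eif5b were at -0.01 and 0.01, Tsga10 at -0.04, Actr1b at -0.06, Rev1 at -0.14 and Ankrd39 at -0.18, while Tmem131 was at 0.10 and Lipt1 at 0.15. The groups thus did not overlap for 3 of these 13 genes lower in KO and for 1 higher, where the shares of all tested genes were 8.68% and 10.6%. The neighbours were described without a test. Against the WT mean, their median was -0.03 in KO1, -0.25 in KO2 and 0.04 in KO3, thus lowest in KO2.

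**Figure D2:**
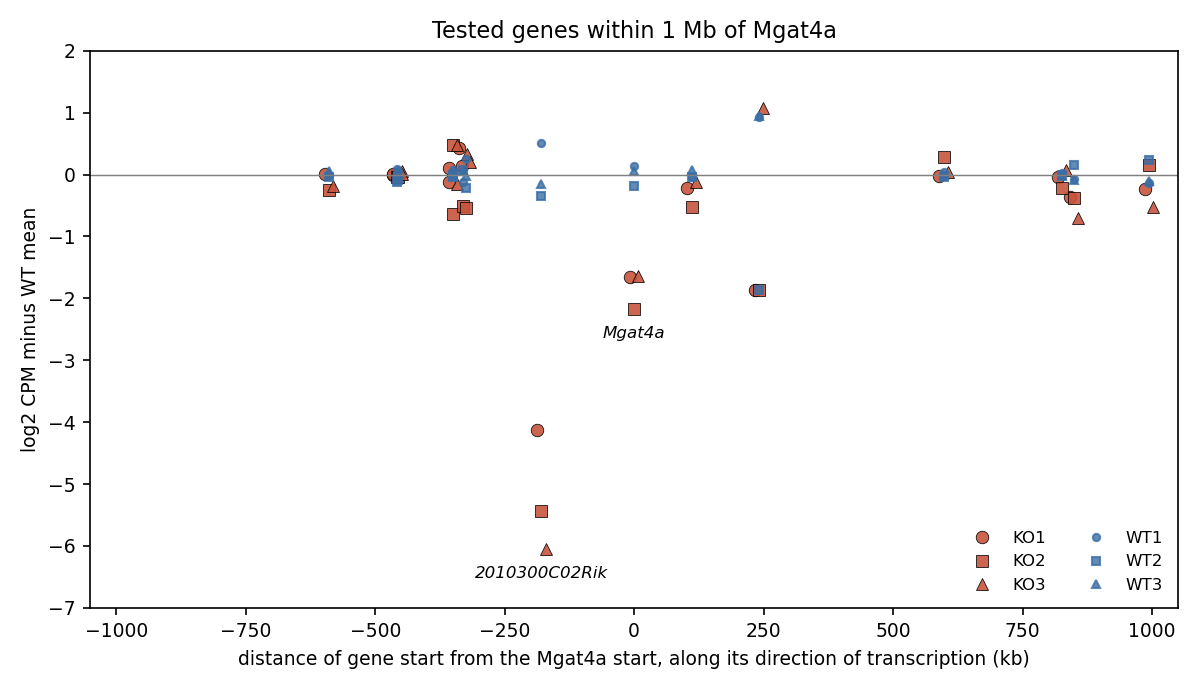
Tested genes within 1 Mb of Mgat4a, by distance of their start from the Mgat4a start along its direction of transcription (kb), as log2 CPM (prior count 2) minus the WT mean for each library. Large red symbols are KO libraries, set 8 kb apart so that they can be told apart, and small blue symbols are WT libraries. Mgat4a and 2010300C02Rik lie below all other genes in the KO libraries, apart from Inpp4a, which is near 0 counts.

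The genes around Mgat1 and Mgat5 were set beside those members in the same way, without a test. Around Mgat1, the median of 16 tested genes was 0.15 on the log2 scale, opposite in sign to Mgat1, and 11 of them were positive. The KO medians against WT were 0.16, 0.18 and 0.18 in KO1, KO2 and KO3, whereas Mgat1 itself was at -0.37, -0.25 and -0.32. Mgat4b is one of these 16 genes. Only 4 tested genes started within 1 Mb of the Mgat5 start, with a median of 0.19 and a range of 0.08 to 0.25, below the 0.68 of Mgat5. All 4 had the sign of Mgat5. Their median was 0.23 in KO1, 0.07 in KO2 and 0.23 in KO3, where Mgat5 was at 0.77, 1.06 and 0.02.

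The pattern of Mgat4a over the 6 libraries was compared with that of 9295 other genes whose mean reached 5 CPM. The measure was the root mean square difference of log2 CPM after each gene was centred on its own mean. The median difference over genes was 0.95. The closest was Rbm47, an RNA-binding protein gene on chromosome 5, at 0.18. Its WT values were 14.1, 10.8 and 12.6 CPM and its KO values 5.26, 3.27 and 5.34 CPM, low in WT2 among the WT libraries and in KO2 among the KO libraries as Mgat4a was. Hsd11b1, which regenerates active glucocorticoid, followed at 0.32, then Lyz2 (lysozyme, 0.39), Ffar2 (a receptor for short-chain fatty acids, 0.39), St5 (0.40) and Trem1 (a receptor of myeloid cells, 0.42). Lyz2 is a myeloid gene, and of the 10 myeloid markers examined Elane, Adgre1 (listed as Emr1) and Ly6c2 were at 0 in every library. The summed myeloid level was 40.8 to 46.6 CPM in WT and 21.01 to 101.5 CPM in KO, of which Fcgr3 made up 85.6 CPM in KO2. Itgam was at 4.73, 1.15 and 3.41 CPM in WT and at 29.45, 0.248 and 4.90 CPM in KO. Cd14 was at 1.41, 0.577 and 0.395 CPM in WT and at 0, 0 and 0.392 CPM in KO. The part of myeloid RNA in the result was not tested. Among the other members Mgat1 ranked 507 in likeness, at 0.79, Mgat4b 3021, Mgat2 3135 and Mgat5 8710. With a correlation in place of the difference only 1 of the 6 closest genes was among the 6, so the names depend on the measure. The libraries behind the comparison are the same 6 that chose Mgat4a, and no test was made.

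**Figure D3:**
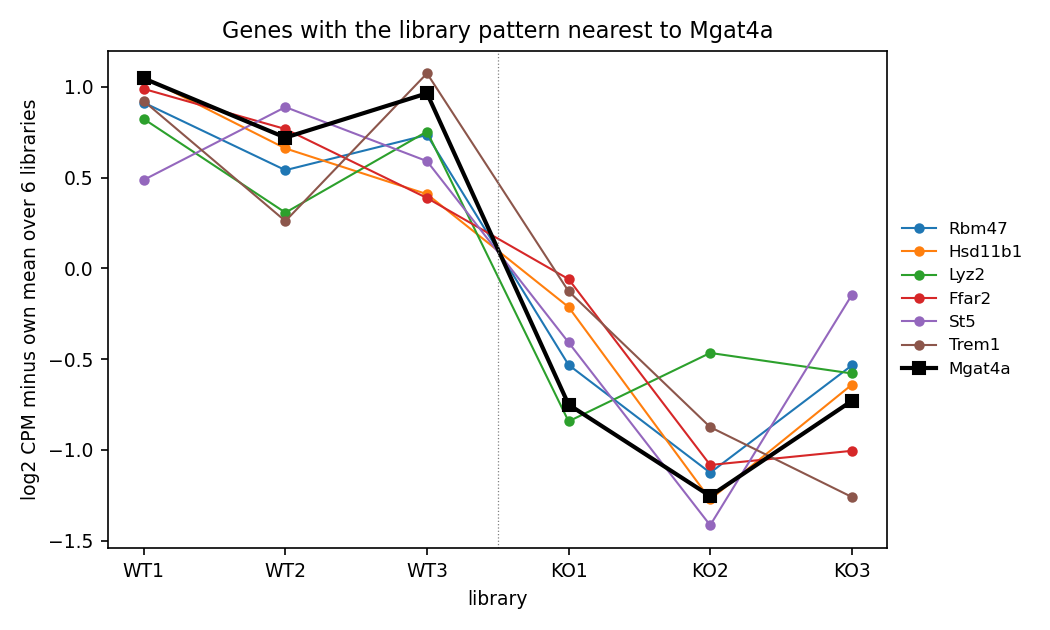
Library pattern of Mgat4a (black) and of the 6 genes closest to it, as log2 CPM (prior count 2) minus the gene's own mean over 6 libraries. Mgat4a and Rbm47 are lowest in KO2 and, among WT libraries, in WT2.

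Taken over all lists together, the glycan genes examined showed no common direction. The lists include lectins and enzymes of another kind of glycan, the mucin type. Single lists leaned either way: 21 of 35 tested genes of precursor synthesis and transfer were negative, and 9 of 14 of trimming were positive. Over 7 lists, 155 genes were sought, 154 had a row and 123 were tested. Of these 123, 61 had a negative and 62 a positive log2 fold change, with a median of 0.00, where the median of all tested genes was 0.02. The groups did not overlap for 10 genes lower in KO and 10 higher (8.13% each, against 8.68% and 10.6% of all tested genes). None passed edgeR, which called 0 of all 10896 tested genes. DESeq2 called 1 lower and 1 higher, and of all rows with an adjusted p it called 1.24% lower and 0.705% higher. The lists were chosen with earlier results of these data known.

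In the steps before branching, precursor synthesis and transfer had 35 tested genes, 21 of them negative, with a median log2 fold change of -0.04, which was 0.03 without KO2. The groups did not overlap for 5 of these genes lower in KO, Rpn2 and Ddost among them (14.3%, against 8.68% of all tested genes). They did not overlap for 2 genes higher in KO (5.71%, against 10.6%). Rpn2, a subunit of the oligosaccharyltransferase that attaches the precursor to protein, lay at 538.6, 541.7 and 539.1 CPM in WT and at 504.4, 469.5 and 487.0 CPM in KO (-0.17 ± 0.05 SE, edgeR adjusted p = 0.482, DESeq2 adjusted p = 0.0223). Without WT2 and KO2 the DESeq2 adjusted p of Rpn2 was 0.294, and the call was lost. Ddost and Dad1, of the same complex, were at -0.19 ± 0.07 and -0.21 ± 0.09 and were not called. Rpn1 (-0.15), Ost4 (-0.20) and Tmem258 (listed as 1810006K21Rik, -0.17) also belong to this complex. They were the remaining genes of the 5, so all 5 were of this complex. Its other subunits in the list, Dad1, Stt3a, Stt3b, Ostc, Krtcap2, Tusc3 and Magt1, overlapped between the groups, and only Tusc3 was positive (0.045). The complex was picked out after seeing the data and was not tested as a set. Of the 14 tested genes of glucose and mannose trimming, 9 were positive, with a median of 0.05 and 0 calls. Man2a1, the Golgi mannosidase that acts between MGAT1 and MGAT2, lay at 141.1, 133.8 and 142.4 CPM in WT and at 152.0, 164.5 and 152.2 CPM in KO (0.15 ± 0.08). Edem1 and Uggt1, of glycoprotein quality control, stood out in KO2 alone, at 237.9 and 285.6 CPM against at most 114.1 and 192.4 CPM in the other libraries.

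After branching, the median over 19 tested genes of elongation and capping was 0.04 on the log2 scale, and the groups did not overlap for 3 genes higher in KO (15.8%, against 10.6% of all tested genes) and 2 lower (10.5%, against 8.68%). Without KO2 that median was -0.04. St3gal6, a sialyltransferase that caps galactose, was called higher by DESeq2 (adjusted p = 0.0401) and not by edgeR (adjusted p = 0.479). It lay at 98.4, 95.3 and 113.3 CPM in WT and at 130.7, 171.9 and 151.1 CPM in KO (0.55 ± 0.14). Without WT2 and KO2 its DESeq2 adjusted p was 0.112, and the call was lost. B3gnt3 was at 2.66, 3.20 and 4.30 CPM in WT and 1.46, 0.694 and 1.81 CPM in KO (-1.39 ± 0.42), and B3gnt7 at 0.71 ± 0.31. Neither of these N-acetylglucosaminyltransferases was called by edgeR or DESeq2.

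Genes that supply the donor sugars were centred near 0. The median log2 fold change of the 31 tested genes was -0.01, with 16 negative and 0 calls by either tool, and Galk1 (-0.26 ± 0.09), Ugp2 (-0.22 ± 0.10) and Gmds (-0.34 ± 0.18) had the smallest p-values. Of the galectins and sialic acid lectins, which read the finished glycans, 8 genes were tested, 5 positive and 3 negative. Of these, 0 were called, and the median was 0.15. Lgals1 lay at 660.7, 556.8 and 686.5 CPM in WT and at 695.3, 39.45 and 730.8 CPM in KO (-0.43 ± 0.91), thus far lower in KO2 alone. Lgals4 lay at 3.61, 3.57 and 2.96 CPM in WT and at 6.72, 4.56 and 7.25 CPM in KO (0.84 ± 0.26). Lgals8 (0.32 ± 0.23) and Siglecg (0.15 ± 0.11) overlapped between the groups. For comparison with another kind of glycan, 16 enzymes of mucin-type O-glycans had a median of 0.05 and 0 calls, and Galnt4, C1galt1 and St6galnac3 were at 0.50 ± 0.26, 0.10 ± 0.07 and -0.49 ± 0.22.

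**Figure D4:**
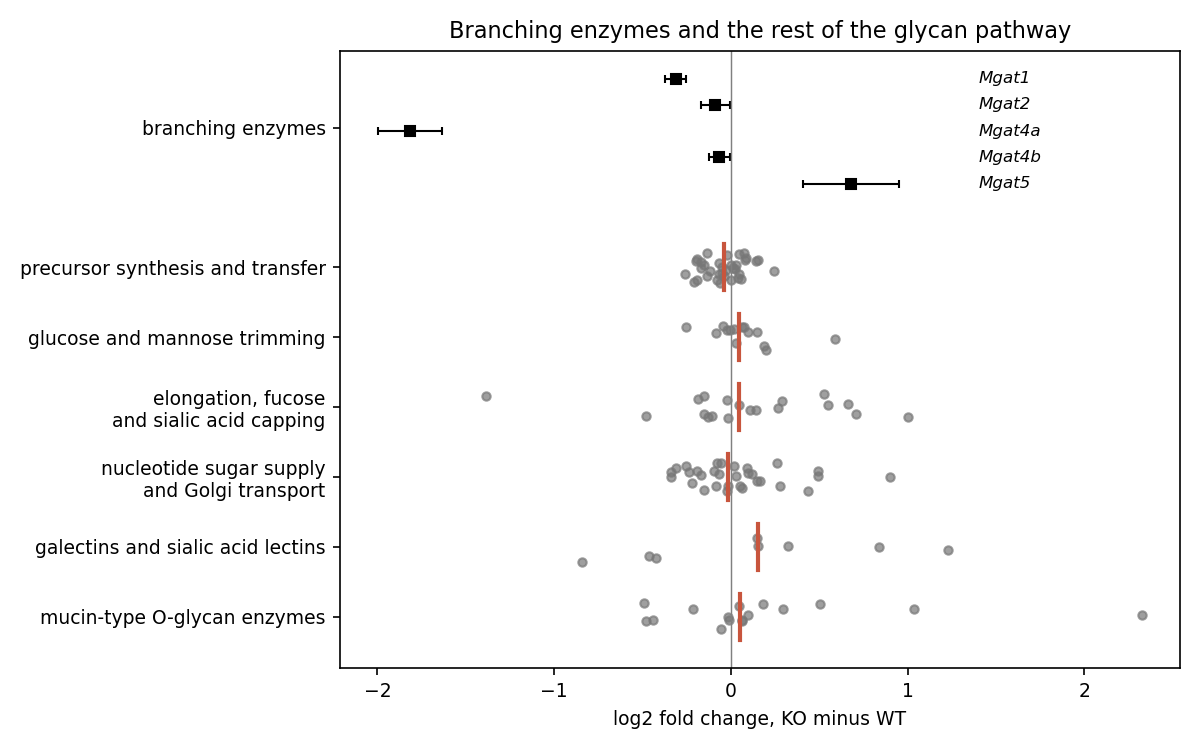
Log2 fold change (KO minus WT, edgeR) of the 5 measured branching enzymes, with SE bars, and of each tested gene of 6 glycan lists (grey points, spread vertically at random), with list medians in red. The list medians lie between -0.04 and 0.15. Mgat4a, which was chosen for its fall, lies at -1.81, and Mgat5 at 0.68. These 2 are values of single genes, and single genes of the lists also lie far from their medians. Examples are B3gnt3 at -1.39, B3gnt7 at 0.71 and Lgals4 at 0.84.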

How the data were processed

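RNA of 6 lines was prepared with a TruSeq RNA kit and sequenced, per the labels' protocols. The authors deposited raw counts per gene symbol with no normalization. Trim Galore, STAR, DESeq2 and the GRCm38 build are named in the submitters' processing notes. No version, counting program, annotation or strandedness is given in the sources used here. Columns matched 1 library each.

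CPM were computed from library totals (17859519 to 24108563). The test, over 10896 genes kept by filterByExpr, was edgeR 4.0.16 in R 4.3.3 (TMM, robust quasi-likelihood F test, two-sided, Benjamini-Hochberg adjusted p under 0.05). DESeq2 1.42.0 and limma-voom (limma 3.58.1) were alternatives, with other scalings, filters, a replicate block and left-out libraries. Log2 CPM used a prior count of 2. Lengths and positions came from GENCODE M21. The genes named besides the members were Cdk6, other Mgat genes, up to 3 per list with the smallest edgeR p, the 6 closest in pattern and the tested neighbours of Mgat4a within 1 Mb. Cell type markers, Tmem163, Lgals1 and the oligosaccharyltransferase subunits other than Rpn2, Ddost and Dad1 were named outside this rule. Members, lists and rules were chosen with earlier results of these data known. WT and KO share replicate numbers. Deviations from the group means correlated at 0.33, 0.64 and 0.46 for numbers 1, 2 and 3, above the criterion of 0.1. However, WT1 correlated more with KO3 (0.41) and KO1 more with WT3 (0.36). Number 2 matched only within its own number. WT2 was at -0.46 with KO1 and -0.58 with KO3, and KO2 at -0.45 with WT1 and -0.505 with WT3. The main test did not use the replicate numbers, and the block was an alternative.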

Additional observations from a re-analysis of the deposited data

How the results depend on the processing

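Each of the 5 measured members kept its sign under all 16 alternatives. The log2 fold change ran from -1.90 to -1.66 for Mgat4a, from -0.35 to -0.28 for Mgat1, from -0.15 to -0.05 for Mgat2, from -0.08 to -0.04 for Mgat4b and from 0.45 to 0.92 for Mgat5. The count of genes passing the test was 0 under the edgeR and limma-voom settings, leaving out each library in turn included (0 to 0). It was 218 with DESeq2, and 340 with DESeq2 without WT2 and KO2, a setting chosen after seeing the data. In that setting Mgat1 was called (adjusted p = 0.022), and Rpn2 and St3gal6 were not. With the replicate number as a block 0 genes passed, Mgat4a was at -1.83 and Mgat5 at 0.62, and the block changed no call. In that fit Mgat1 was at -0.31 ± 0.07 (SE), Mgat2 at -0.09 ± 0.07 and Mgat4b at -0.07 ± 0.07. The share of Mgat4a in the Mgat4a and Mgat4b level was 21.8% in WT and 7.65% in KO with the longest coding transcripts, also chosen after seeing the data, and 45.3% and 19.8% in unscaled counts. Within 500 kb, the neighbours of Mgat4a had a median of -0.04. Of 96 list medians under alternatives, 5 moved by more than the spread between libraries. Under some alternatives the sign of genes outside the members turned. Leaving out each library in turn gave -0.224 (without KO2) to 0.306 for Cdk6, -0.148 (without KO2) to 0.891 for Edem1, -0.054 (without KO2) to 0.315 for Uggt1, -0.050 (without WT2) to 0.050 for Eif5b, -0.049 to 0.031 for Txndc9, -0.020 (without KO1) to 0.400 for Lipt1, -0.174 to 0.166 (without KO2) for Tsga10 and -0.128 to 0.021 (without KO2) for Actr1b. Without WT2 and KO2, values with edgeR and DESeq2 were -0.245 and -0.246 for Cdk6, -0.048 and -0.049 for Uggt1, -0.023 and -0.024 for Eif5b, 0.058 and 0.056 for Tsga10, -0.011 and -0.012 for Tmem131, and 0.019 and 0.018 for Actr1b. Txndc9 was at 0.002 with DESeq2, 0.003 with RLE size factors and 0.018 with library totals alone. The cause was not tested. Low counts limit 2010300C02Rik, whose fitted value ran from -7.75 without KO1 to -5.31 without KO3. They also limit Inpp4a, whose value ran from -6.02 to -0.22 over 15 alternatives.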
